A study of Mus musculus with 13 samples.

Results

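The genes described here encode the protein components of the mitochondrial ribosome, measured in mouse liver on bead arrays. They were chosen by name, as all rows whose gene symbol begins with Mrpl or Mrps followed by a number. There were 72 such rows among 18138 gene rows. A gene was tested if its detection p-value, the chance of so bright a signal from background alone, was under 0.05 on at least 4 of 13 arrays. This left 66 of the 72, which were 39 of 44 Mrpl symbols and 27 of 28 Mrps symbols, among 8431 genes tested in all. Of the 66, 58 were detected on all 13 arrays. All animals were male B6C3F1 mice. Their labelled age of 7 days is read here, from the design text, as the age when treatment began, and each array held liver RNA of 1 mouse. The DCA group of 4 mice had dichloroacetic acid (DCA), which forms when drinking water is chlorinated, in its water at 3.5 g/L for 10 weeks and then deionized water for 90 weeks. The PB group of 5 mice received 0.06% phenobarbital, a rodent liver mitogen and tumour promoter, on the same schedule. The control group of 4 mice drank deionized water only. The comparisons therefore ask what remained in the liver long after the chemical had been withdrawn. Whole archived liver was used, so fewer cells of a type and less RNA per cell cannot be told apart.

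The mitochondrial ribosome translates the few proteins that mitochondrial DNA encodes, all of them subunits of the oxidative phosphorylation complexes. All of its proteins are encoded in the nucleus, made in the cytosol and imported, while its RNAs come from mitochondrial DNA. Part of the proteins descend from bacterial ribosomal proteins and sit around the decoding centre, the peptide exit and the factor-binding stalk. The others have no bacterial counterpart and were added in the mitochondrial lineage. Hepatocytes are rich in mitochondria, and the nuclear factors NRF1, GABP (an ETS-family factor) and YY1 are known regulators of nuclear genes for mitochondrial proteins.

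Promoter windows of RefSeq (build GRCm38.p6), which run from 250 bases before to 50 after the annotated gene start, were found for 63 of the 72 genes and for 58 of the 66 tested. All 72 symbols were current in the gene table of that build and lay on 17 chromosomes. The windows below belong to genes whose array values are described later. Every window shown holds a match to a core motif named below. Of the 58 windows of tested genes 25 hold none, so those shown do not stand for all. Mrps12, Mrps23 and Mrpl37 had lower mean levels in PB than in control livers, and Mrpl14 and Mrpl30 had higher mean levels in DCA than in PB livers. Mrps11 is shown because its window overlaps that of Mrpl46 on the opposite strand. The windows are those of Mrps12 (chr7:28741772-28742071, minus strand), Mrps23 (chr11:88204138-88204437, plus strand), Mrpl37 (chr4:107066817-107067116, minus strand), Mrpl14 (chr17:45686099-45686398, plus strand), Mrpl30 (chr1:37890227-37890526, plus strand) and Mrps11 (chr7:78782881-78783180, plus strand). Each is printed 5′ to 3′ on the strand of its gene, and capitals mark a match to the ETS core CCGGAAG, the NRF1 core GCGCANGCG or the YY1 core AAGATGGCG on either strand.
Mrps12: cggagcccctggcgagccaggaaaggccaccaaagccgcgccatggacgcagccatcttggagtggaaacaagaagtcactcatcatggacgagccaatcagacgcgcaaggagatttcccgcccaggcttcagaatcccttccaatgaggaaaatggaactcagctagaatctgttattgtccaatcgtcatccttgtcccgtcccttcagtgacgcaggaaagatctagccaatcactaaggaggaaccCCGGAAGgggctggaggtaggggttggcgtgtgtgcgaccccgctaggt
Mrps23: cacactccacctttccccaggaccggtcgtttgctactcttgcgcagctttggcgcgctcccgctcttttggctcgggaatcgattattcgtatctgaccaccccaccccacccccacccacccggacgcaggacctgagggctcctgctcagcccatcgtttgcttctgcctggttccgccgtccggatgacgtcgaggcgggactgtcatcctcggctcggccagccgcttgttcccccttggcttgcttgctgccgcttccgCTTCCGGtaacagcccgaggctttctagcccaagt
Mrpl37: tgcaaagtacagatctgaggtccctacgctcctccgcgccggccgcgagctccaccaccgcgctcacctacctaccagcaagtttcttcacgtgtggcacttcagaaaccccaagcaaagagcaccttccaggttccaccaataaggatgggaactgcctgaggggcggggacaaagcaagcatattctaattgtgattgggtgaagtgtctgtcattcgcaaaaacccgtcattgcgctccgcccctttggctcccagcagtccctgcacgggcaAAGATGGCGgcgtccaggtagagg
Mrpl14: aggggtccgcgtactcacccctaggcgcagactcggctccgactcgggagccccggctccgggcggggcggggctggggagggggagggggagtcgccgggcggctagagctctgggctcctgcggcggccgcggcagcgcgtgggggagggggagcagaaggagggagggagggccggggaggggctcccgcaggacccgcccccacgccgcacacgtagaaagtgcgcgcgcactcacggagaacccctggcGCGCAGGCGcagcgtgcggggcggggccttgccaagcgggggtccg
Mrpl30: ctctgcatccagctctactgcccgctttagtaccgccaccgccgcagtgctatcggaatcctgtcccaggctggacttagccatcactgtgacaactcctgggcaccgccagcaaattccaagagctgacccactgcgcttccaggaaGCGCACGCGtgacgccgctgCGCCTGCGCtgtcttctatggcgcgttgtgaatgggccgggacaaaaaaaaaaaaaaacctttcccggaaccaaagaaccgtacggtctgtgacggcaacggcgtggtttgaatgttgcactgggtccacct
Mrps11: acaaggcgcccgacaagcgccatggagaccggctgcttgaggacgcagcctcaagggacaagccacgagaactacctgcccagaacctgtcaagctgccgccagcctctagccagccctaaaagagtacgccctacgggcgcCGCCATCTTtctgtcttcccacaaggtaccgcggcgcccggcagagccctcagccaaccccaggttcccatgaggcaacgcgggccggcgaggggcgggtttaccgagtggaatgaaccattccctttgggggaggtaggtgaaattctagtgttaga

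With the annotated start as base 0, the ETS core of Mrps12 covered bases 1 to 7 and that of Mrps23 covered bases 15 to 21. The YY1 core of Mrpl37 lay at bases 26 to 34, and the NRF1 core of Mrpl14 at bases 4 to 12. Mrpl30 held a pair of NRF1 cores upstream, at bases -102 to -94 and -82 to -74, and the YY1 core of Mrps11 lay at bases -108 to -100. The annotated starts of Mrps11 and Mrpl46 lay 42 bases apart on opposite strands of chromosome 7, and their windows shared 141 bases. They were the 1 pair of mitoribosomal genes with overlapping windows.

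The ETS core was in 22 of the 58 windows (37.9%), against 18.1% of the windows of all tested genes and 9.12% of all 27025 promoters in the table. The NRF1 core was in 11 (19%), against 13.7% and 6.47%. The YY1 core was in 7 (12.1%), against 3.44% and 1.49%. At least 1 of the 3 cores was in 33 windows (56.9%), against 30.9% of the windows of all tested genes and 15.3% of all promoters. Windows of oxidative phosphorylation subunits held the ETS core in 24.0%, the NRF1 core in 28.0% and the YY1 core in 12.0% of cases, and those of cytosolic ribosomal proteins in 37.5%, 10.0% and 5.0%. No test was made of these shares. In the 58 windows there were 48 matches, of which 41 lay within 100 bases of the start, and no match overlapped one of another core. The 7 genes with 2 different cores were Mrpl17, Mrpl22, Mrps18b, Mrps21 and Mrps26 (ETS and NRF1) and Mrps18a and Mrps27 (ETS and YY1). No window held all 3 cores, and 25 held none. A match describes letters only and shows no binding. Whether a match goes with a higher or lower level in any group was not tested.

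**Figure D1:**
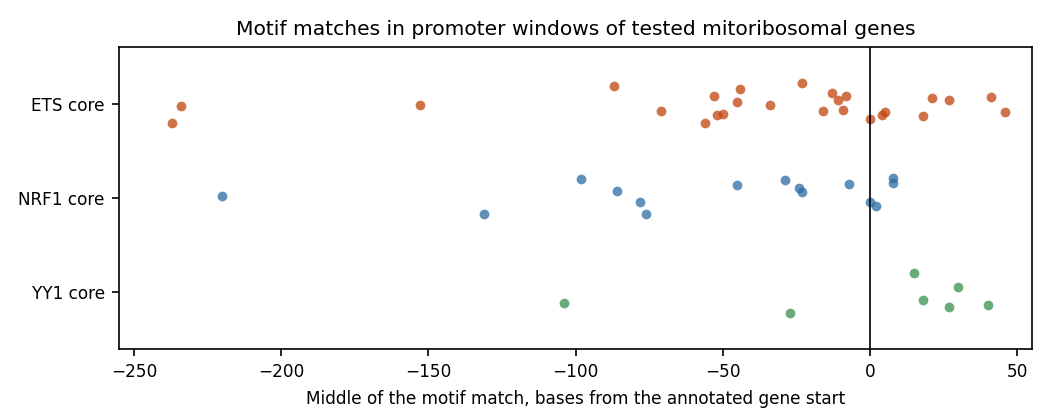
Each point is 1 match of a core motif in the promoter windows of the 58 tested mitoribosomal genes that have a window, placed by the distance of its middle from the annotated start in bases (horizontal axis), with a row per motif and random vertical scatter inside a row. Of the 48 matches, 41 lie within 100 bases of the start.

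The arrays differed in brightness, with a mean raw intensity per array of 189 to 462. For the comparisons the intensities were corrected for background, quantile-normalized and put on the log2 scale, and every level below is on that scale. Among genes whose detection p-value came from a single probe, the lowest detected level was 4.61 to 4.84, depending on the array. The hepatocyte markers Ttr and Apoa1 were detected on all 13 arrays at a mean raw intensity of 16000 and 19100, while Alb was detected on 4 arrays (109) and Fgb on none (97.4). PB replicate 3 was the dimmest array. PB replicate 1 had the lowest mean level of the Kupffer cell, sinusoidal endothelial and stellate cell markers of all 13 arrays (5.92, 5.69 and 6.13), and the highest of the detected tumour-associated markers (8.02). The 2 detected neutrophil markers averaged 7.34 and 7.56 in control replicates 2 and 4, against 4.56 to 6.12 on the other arrays. The 3 platelet markers averaged 7.17 in control replicate 4, against 4.68 to 5.23 on the other arrays. The mean level of the 5 erythroid markers ran over 7.42 to 8.11 in DCA and 7.18 to 8.01 in PB livers, against 8.0 to 8.59 in control livers. The part of these differences in the results was not tested.

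Over the 66 genes, the mean log2 level per array was 8.14 ± 0.07 in DCA livers (SD, n = 4) and 7.95 ± 0.11 in PB livers (n = 5), against 8.05 ± 0.08 in control livers (n = 4). The arrays of the 3 groups overlapped, with 8.05 to 8.19 in DCA, 7.81 to 8.07 in PB and 7.94 to 8.13 in control livers. Within the PB group, replicates 2 and 3 were lowest. On these arrays the median gene lay 0.18 and 0.21 below its own mean over all arrays, and 11 and 15 of the 66 genes lay above that mean. On PB replicates 1, 4 and 5 the medians were -0.01, 0.02 and -0.02. On control replicate 4 the median was -0.07, with 27 of the 66 genes above their own mean. PB replicate 3 and control replicate 4 each held the lowest level of 14 genes, PB replicate 1 that of 12 and PB replicate 2 that of 6. In DCA livers, replicates 2 and 4 were highest, with a median deviation of 0.12 and 0.14 and with 52 and 53 of the 66 genes above their own mean.

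**Figure D2:**
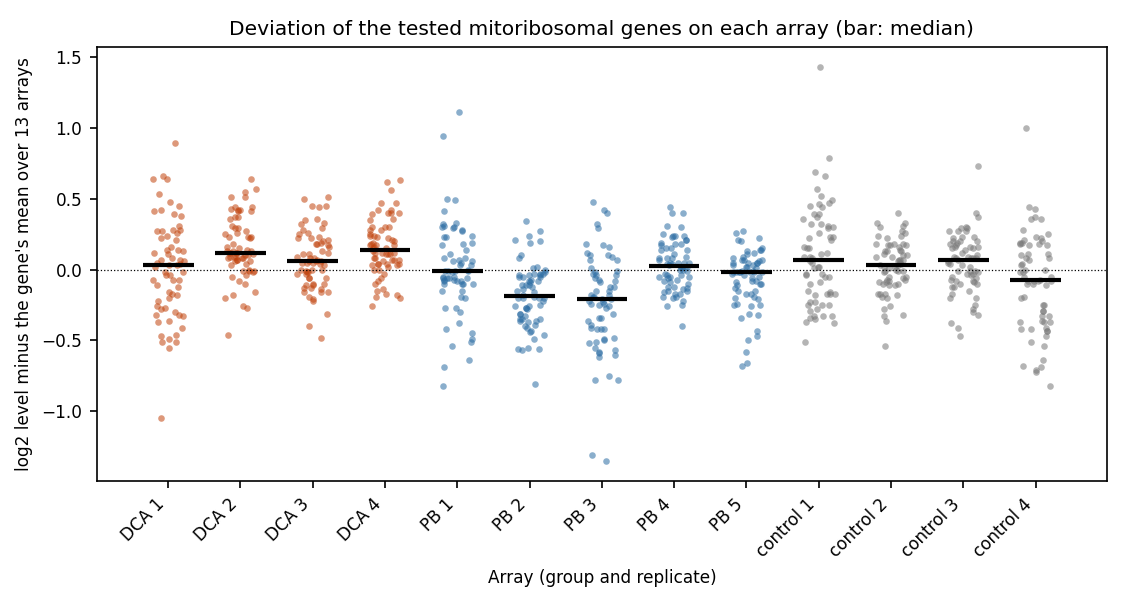
Each point is 1 of the 66 tested mitoribosomal genes on 1 array, as its log2 level minus its own mean over the 13 arrays (vertical axis), with a column per array and random sideways scatter within it. Black bars are medians, which are lowest on PB replicates 2 and 3 (-0.18 and -0.21) and highest on DCA replicates 2 and 4 (0.12 and 0.14).

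No mitoribosomal gene passed an adjusted p of 0.05 in any comparison (limma on all 13 arrays, Benjamini-Hochberg over the 8431 genes tested). In DCA against control livers 0 of the 66 were called, as were 0% of all genes. The counts at an unadjusted p under 0.05 were 5 higher (7.58%, against 2.25% of all genes) and 0 lower (2.12% of all genes). In PB against control livers 0 were called (0.083% of all genes), and 2 were higher (3.03%, against 4.66%) and 9 lower (13.6%, against 5.43%) at an unadjusted p under 0.05. In DCA against PB livers 0 were called (0.107% of all genes), and 18 were higher (27.3%, against 7.2%) and 1 lower (1.52%, against 7.32%). The F test over the 3 groups called 0 of the 66 and 0.107% of all genes, with a smallest adjusted p of 0.287 among the 66. With limma's array weights 5 of the 66 genes passed in DCA against PB livers, as given below, and 0 in the other comparisons. With those weights 298 of all 8431 genes passed in DCA against PB livers, against 9 without them.

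The median log2 difference of the 66 genes was 0.07 in DCA against control livers, with 45 genes higher and 21 lower, while the median of all tested genes was -0.01 and 49.0% of them were higher. In PB against control livers it was -0.09, with 24 higher and 42 lower, against -0.01 and 49.0% for all genes. In DCA against PB livers it was 0.17, with 52 higher and 14 lower, against 0.00 and 49.5%. The last comparison shares its DCA and PB arrays with the other 2, so the 3 medians are not separate evidence. Without PB replicates 2 and 3, left out together after their values were seen, the median was -0.02 in PB against control livers, with 32 genes higher. It was 0.10 in DCA against PB livers, with 48 higher. Leaving out control replicate 4 gave a median of 0.03 in DCA against control and -0.15 in PB against control livers. Leaving out PB replicate 2 or 3 gave -0.05, and control replicate 1 or PB replicate 5 -0.06, in PB against control livers.

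The 95% interval of the difference stayed within ±0.5 on the log2 scale for 31 of the 66 genes in DCA against control, for 33 in PB against control and for 28 in DCA against PB livers. It stayed within ±1 for 63, 63 and 60 genes in the same comparisons. The fitted differences ran between -0.56 and 0.52, between -0.80 and 0.38 and between -0.49 and 0.69. For many genes the intervals thus leave room for differences beyond ±0.5. For a few they leave room for differences beyond ±1, chiefly for genes that varied most between mice.

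**Figure D3:**
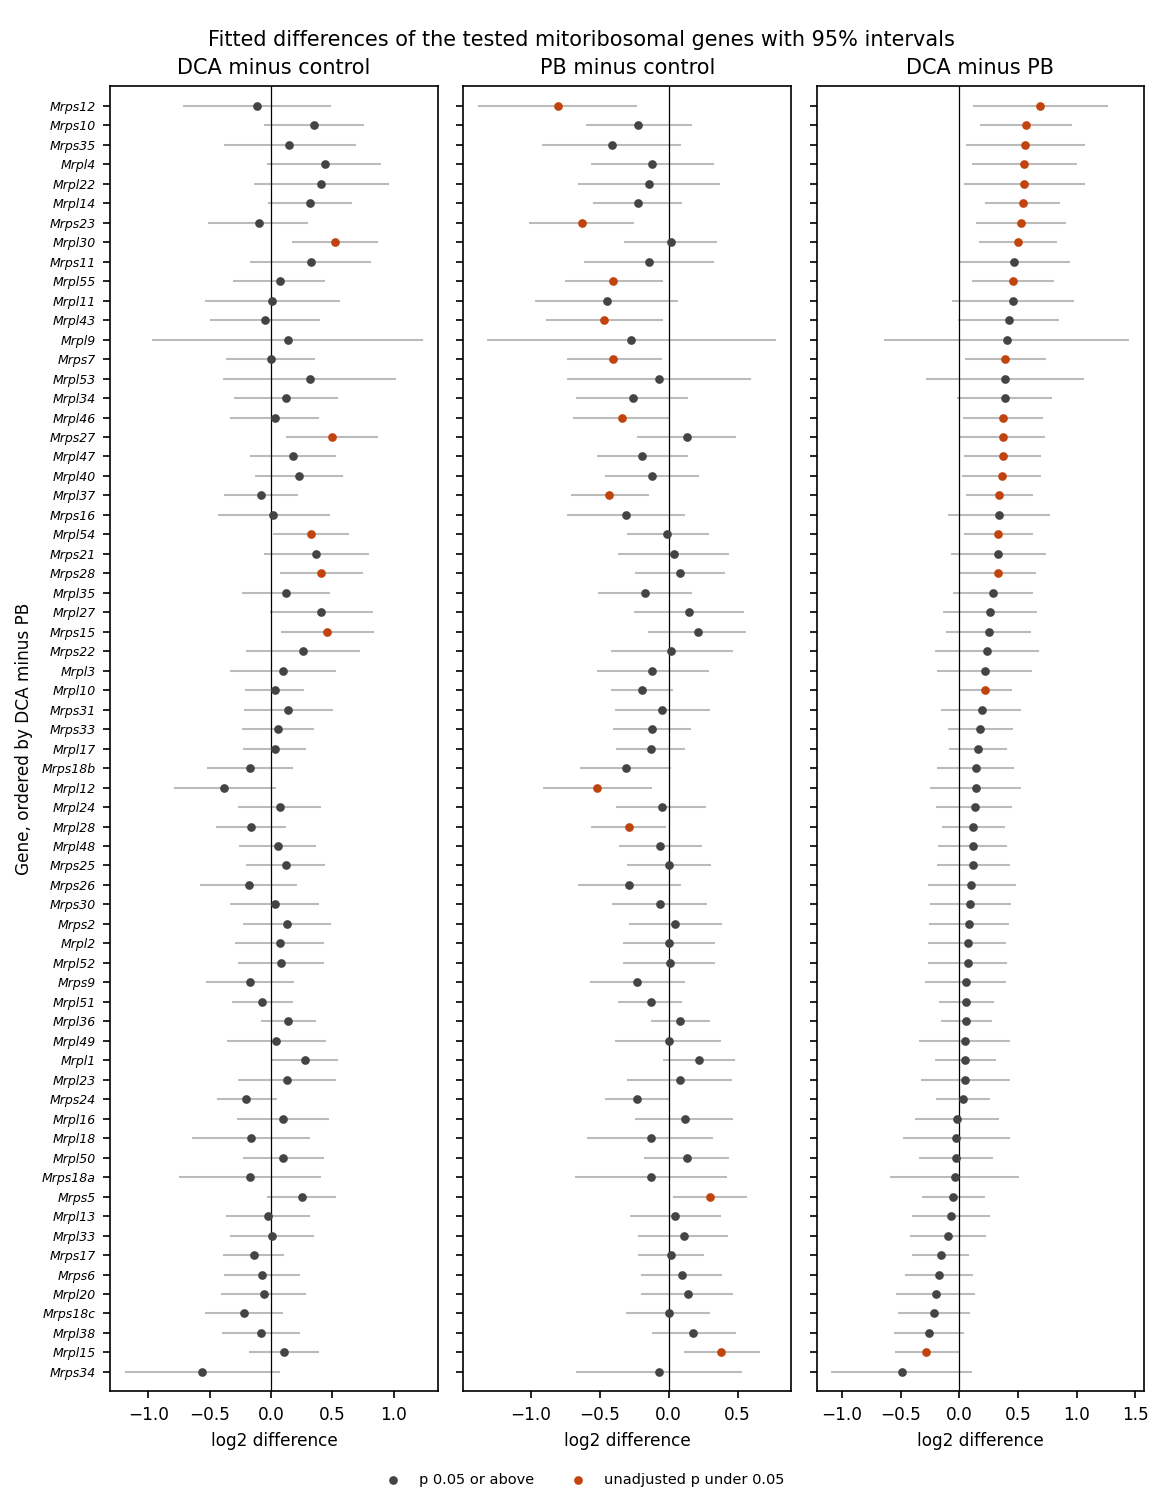
Fitted log2 differences (horizontal axes) of the 66 tested mitoribosomal genes with 95% intervals as grey lines, in a panel each for DCA minus control, PB minus control and DCA minus PB, with genes ordered by the last. Red points have an unadjusted p under 0.05, and most of them lie left of 0 in PB minus control (9 of 11) and right of 0 in DCA minus PB (18 of 19).

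Genes of the small subunit gave the lowest values in PB against control livers. Mrps12 encodes the protein at the decoding centre, where codons are read. Its log2 level was 9.18, 8.34, 7.84, 9.17 and 8.91 in PB livers, against 9.62, 9.39, 9.55 and 9.40 in control livers. Every PB liver lay below every control liver, and PB replicates 2 and 3 lay far below the other PB livers. The means were 8.69 ± 0.58 and 9.49 ± 0.11, and the difference was -0.80 ± 0.27 (SE, limma adjusted p = 0.364). In DCA livers Mrps12 had 9.60, 9.66, 8.75 and 9.50. Without PB replicates 2 and 3 the PB minus control difference was -0.41.

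Mrps23, a small-subunit protein with no bacterial counterpart, had the smallest p of this comparison among the 66 genes. It had levels of 6.68, 6.16, 6.02, 6.50 and 5.94 in PB livers, against 7.31, 6.75, 6.77 and 6.73 in control livers. The groups did not overlap, though the highest PB liver came close to the lowest control liver, and control replicate 1 stood above the other controls. The difference was -0.63 ± 0.18 (limma adjusted p = 0.265). With the background fitted on all rows of the table it was -0.26.

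Mrps7, which binds the ribosomal RNA in the head of the small subunit, had 8.71, 9.12, 9.22, 9.33 and 9.42 in PB livers, against 9.35, 9.43, 9.69 and 9.76 in control livers. The groups overlapped through PB replicate 5 and control replicate 1, and the difference was -0.40 ± 0.16 (limma adjusted p = 0.439). Mrps24 and Mrps9, both counterparts of bacterial small-subunit proteins, were lower in all PB than in all control livers by 0.23 each (SE 0.11 and 0.16). Mrps24 was also lower in all 4 DCA livers than in all 4 controls, with 10.73, 10.99, 10.92 and 10.97 in DCA livers, against 11.10, 11.02, 11.15 and 11.12 in control livers. Its DCA minus control difference was -0.20 ± 0.11 (limma adjusted p = 0.995).

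In the large subunit, Mrpl37, a component particular to mitochondria, had 8.05, 8.38, 8.20, 8.56 and 8.41 in PB livers, against 8.72, 8.55, 8.72 and 9.0 in control livers. PB replicate 4 and control replicate 2 were all that overlapped. The difference was -0.43 ± 0.13 (limma adjusted p = 0.308) and -0.41 without PB replicates 2 and 3. Mrpl12 encodes the stalk protein through which translation factors reach the ribosome, and in human cells it also binds the mitochondrial RNA polymerase. It had 10.38, 9.62, 9.64, 10.15 and 10.17 in PB livers, against 10.64, 10.49, 10.35 and 10.55 in control livers. Only PB replicate 1 reached the range of the controls, and the difference was -0.52 ± 0.18 (limma adjusted p = 0.387), or -0.27 without PB replicates 2 and 3. Mrpl12 had 9.78, 10.03, 10.25 and 10.47 in DCA livers, and its DCA minus control difference was -0.38 ± 0.19 (limma adjusted p = 0.995).

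Mrpl55, a large-subunit component particular to mitochondria, had 7.30, 7.31, 7.47, 7.51 and 7.48 in PB livers, against 7.65, 7.79, 7.88 and 7.91 in control livers. The groups did not overlap, and the difference was -0.40 ± 0.16 (limma adjusted p = 0.448). In DCA livers the gene spread over 7.32, 8.19, 8.19 and 7.80, and overlapped both other groups. Mrpl10, which anchors the stalk, was lower in all 5 PB than in all 4 control livers by 0.19 ± 0.10 (limma adjusted p = 0.567). Its highest PB level was 9.06 and its lowest control level 9.09. The other large-subunit genes with an unadjusted p under 0.05 on the low side were Mrpl43, Mrpl46 and Mrpl28, at -0.47, -0.34 and -0.29.

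Mrpl15, a large-subunit protein of bacterial descent, was the 1 gene higher in every PB liver than in every control liver. It had 5.79, 5.58, 5.96, 5.74 and 5.76 in PB livers, against 5.33, 5.46, 5.26 and 5.48 in control livers. The difference was 0.38 ± 0.13 (limma adjusted p = 0.364), and DCA livers, at 5.24, 5.54, 5.79 and 5.38, overlapped both groups. The gene is dim, with a mean raw intensity of 134, and its difference was 0.07 with the background fitted on all rows. Mrps5, of the small subunit, was the other gene on the high side at an unadjusted p under 0.05, with a difference of 0.30 ± 0.12 (limma adjusted p = 0.446). Mrpl1, Mrpl38 and Mrps15 were at 0.22, 0.18 and 0.21. Mrpl38 was at 0.08 without control replicate 1 and 0.29 without control replicate 4, and Mrps15 at 0.10 without control replicate 2. With each array scaled to its median over all rows in place of quantile normalization, Mrps5, Mrpl1, Mrpl38 and Mrps15 turned to -0.06, -0.09, -0.30 and -0.05.

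**Figure D4:**
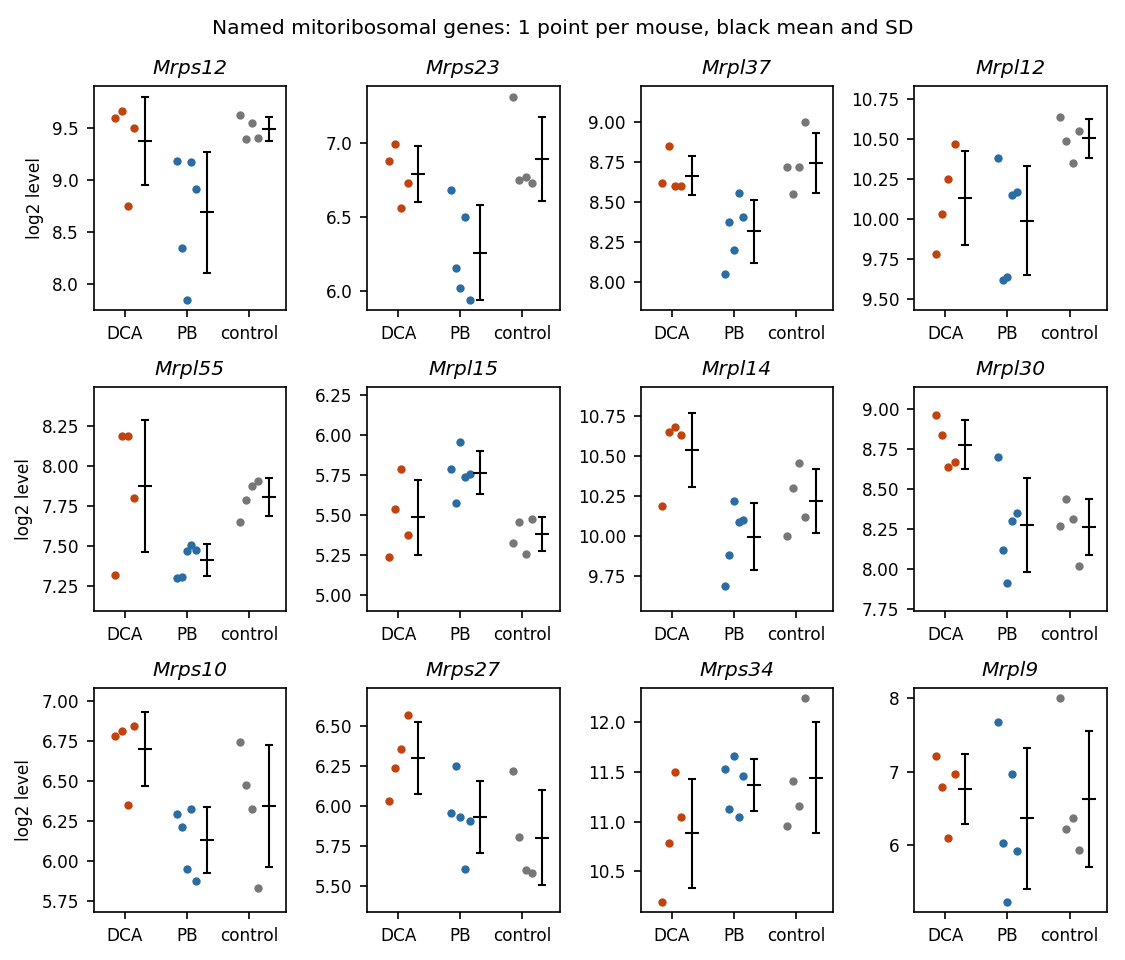
Log2 levels (vertical axes, each panel on its own range) of 12 mitoribosomal genes, 1 point per mouse in DCA, PB and control livers, with the mean and SD in black beside the points. The PB mean is lowest for Mrps12, Mrps23 and Mrpl55 and highest for Mrpl15, all DCA livers lie above all controls for Mrpl30, and Mrpl9 spreads most within groups.

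Without PB replicates 2 and 3 the count of low genes at an unadjusted p under 0.05 in PB against control livers was 2 (3.63% of all genes) and that of high genes 2 (4.07%). The 9 low genes of the full data were 5 without control replicate 2 (5.38% of all genes). They were 6 without control replicate 1 (5.34%), control replicate 3 (4.58%), PB replicate 2 (4.69%) or PB replicate 3 (3.96%), and 10 without control replicate 4 (5.21%) or PB replicate 5 (4.71%). In this comparison the groups did not overlap on any array for 1 gene on the high side (1.57% of all genes) and 6 on the low side (1.91% of all genes). The 6 were Mrps12, Mrps23, Mrps24, Mrps9, Mrpl55 and Mrpl10.

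In DCA against control livers the highest difference was that of Mrpl30, a large-subunit protein of bacterial descent. It had 8.96, 8.84, 8.64 and 8.67 in DCA livers, against 8.27, 8.44, 8.31 and 8.02 in control livers. Every DCA liver lay above every control. The means were 8.78 ± 0.15 and 8.26 ± 0.18, and the difference was 0.52 ± 0.16 (SE, limma adjusted p = 0.995). PB livers, at 8.70, 8.12, 7.91, 8.30 and 8.35, reached into the DCA range with replicate 1 alone.

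Mrpl54, a large-subunit component particular to mitochondria, had 9.22, 9.54, 9.38 and 9.17 in DCA livers, against 8.76, 9.02, 9.13 and 9.08 in control livers. The groups came close but did not overlap, and the difference was 0.33 ± 0.14. Mrps27, which contains repeats that bind RNA, had 6.03, 6.24, 6.36 and 6.57 in DCA livers, against 6.22, 5.81, 5.60 and 5.58 in control livers. Control replicate 1 lay inside the DCA range. Its difference was 0.50 ± 0.18, or 0.13 with the background fitted on all rows.

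Mrps15 and Mrps28, both of the small subunit and of bacterial descent, were at 0.46 ± 0.18 and 0.41 ± 0.16. Mrps28 was tight in DCA livers, with 8.63, 8.58, 8.68 and 8.51, against 7.97, 8.38, 8.57 and 7.84 in control livers. Control replicate 3 reached into the DCA range. Mrps5 was higher in all DCA than in all control livers by 0.25 ± 0.13, though its lowest DCA level (7.12) was close to its highest control level (7.11). All of these had a limma adjusted p of 0.995.

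On the low side of DCA against control livers, Mrps34 gave the lowest value. This small-subunit protein without a bacterial counterpart had 10.19, 10.78, 11.50 and 11.05 in DCA livers, against 10.96, 11.41, 11.16 and 12.24 in control livers. Both groups spread over more than 1 log2 unit and overlapped, and the difference was -0.56 ± 0.29 (limma adjusted p = 0.995). It was -0.29 without control replicate 4 and -0.33 without DCA replicate 1. Mrpl12, Mrps18c, Mrps24 and Mrpl28 were at -0.38, -0.22, -0.20 and -0.16. Without DCA replicate 1 Mrps18c was at -0.10 and Mrpl28 at -0.08. Mrps18c was at -0.14 without control replicate 2, and Mrpl28 at -0.09 without control replicate 4.

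The groups did not overlap for 3 genes on the high side (1.06% of all genes), Mrpl30, Mrpl54 and Mrps5, and for 1 on the low side (1.35% of all genes), Mrps24. The 5 high genes at an unadjusted p under 0.05 were 3 without DCA replicate 2 (1.48% of all genes) and 4 without control replicate 2 (1.86%) or 4 (1.29%). They were 8 without DCA replicate 3 (3.23%) and 9 without control replicate 3 (2.47%).

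Between DCA and PB livers the values of both subunits ran mostly one way, with 31 of 39 Mrpl and 21 of 27 Mrps genes higher in DCA livers. Mrpl14, a large-subunit protein at the face that meets the small subunit, had the smallest p. It had 10.19, 10.65, 10.68 and 10.63 in DCA livers, against 9.69, 9.88, 10.22, 10.09 and 10.10 in PB livers. DCA replicate 1 lay just below the highest PB liver, and the other DCA livers lay above all PB livers. The means were 10.54 ± 0.23 and 10.00 ± 0.21, and the difference was 0.54 ± 0.15 (SE, limma adjusted p = 0.177). Control livers, at 10.00, 10.30, 10.46 and 10.12, overlapped both groups.

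Mrps10, of the small subunit and of bacterial descent, had 6.78, 6.81, 6.35 and 6.84 in DCA livers, against 6.29, 6.21, 5.95, 6.32 and 5.87 in PB livers. The groups did not overlap, with DCA replicate 3 just above the highest PB liver. The difference was 0.57 ± 0.18 (limma adjusted p = 0.214), or 0.20 with the background fitted on all rows. Control livers spread over 6.74, 6.47, 6.32 and 5.83.

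The DCA minus PB difference of Mrpl30 was 0.50 ± 0.16 and that of Mrps23 was 0.53 ± 0.18 (limma adjusted p = 0.204 and 0.231). For Mrpl30 the DCA and PB values stand above, and without PB replicates 2 and 3 the difference was 0.33. Mrps23 had 6.88, 6.99, 6.56 and 6.73 in DCA livers, inside or near the control range, and its DCA minus PB difference was 0.20 with the background fitted on all rows. Mrpl55 was at 0.46 ± 0.16, Mrpl37 at 0.34 ± 0.13, Mrps12 at 0.69 ± 0.27 and Mrps7 at 0.39 ± 0.16. With limma's array weights, which give noisier arrays less weight, Mrpl14 (0.54, adjusted p = 0.0339), Mrpl30 (0.55, 0.0317), Mrps10 (0.65, 0.0325), Mrps23 (0.66, 0.0325) and Mrpl4 (0.63, 0.0499) passed. These were the 5 mitoribosomal genes among 298 of 8431 genes called with those weights, against 9 genes without them. The weights ran from 0.35 for PB replicate 1 to 2.47 for DCA replicate 2.

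The other genes at an unadjusted p under 0.05 on the high side were Mrpl4, Mrpl54, Mrps35, Mrpl47, Mrpl46, Mrpl22, Mrpl40, Mrps27, Mrps28 and Mrpl10, with differences of 0.22 to 0.56. Mrpl15 was the 1 gene on the low side, at -0.28 ± 0.13. Mrps34 had a lower value, -0.49 ± 0.28, and overlapped widely. It was -0.26 without DCA replicate 1. Mrpl38, Mrps18c and Mrps17 were at -0.26, -0.22 and -0.16, and Mrps18c was at -0.10 without DCA replicate 1. All 5 genes, Mrpl15, Mrps34, Mrpl38, Mrps18c and Mrps17, were above 0 with that median scaling, at 0.01, 0.13, 0.34, 0.32 and 0.40. The groups did not overlap for 4 genes on the high side (3.07% of all genes), Mrps10, Mrpl37, Mrps28 and Mrpl10, and for 0 on the low side (2.91% of all genes).

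The 18 high genes of DCA against PB livers were fewer without certain arrays. There were 6 without DCA replicate 2 (5.01% of all genes), 8 without PB replicate 3 (5.23%), 11 without DCA replicate 1 (5.31%) or 4 (5.65%) and 12 without PB replicate 2 (6.74%). There were 5 without PB replicates 2 and 3 together (5.10% of all genes). With the mean raw intensity of the array as a covariate, added after the data were seen, there were 7 (4.48%), and the median difference of the 66 genes was 0.16. With the same covariate the median in PB against control livers was -0.03, with 28 genes higher, and 8 genes were low at an unadjusted p under 0.05 (4.95% of all genes).

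The divergent pair Mrpl46 and Mrps11 belongs to the large and the small subunit. Mrpl46 had 8.68, 8.97, 8.90 and 9.21 in DCA livers and 8.71, 8.35, 8.28, 8.74 and 8.78 in PB livers, against 9.15, 9.03, 8.89 and 8.60 in control livers. Mrps11 had 7.06, 6.86, 7.14 and 7.18 in DCA livers and 7.27, 6.51, 6.30, 6.70 and 6.20 in PB livers, against 7.30, 6.73, 6.46 and 6.45 in control livers. PB replicates 2 and 3 had the 2 lowest Mrpl46 levels of all arrays, and control replicate 1 had the highest Mrps11 level. The DCA minus PB difference was 0.37 ± 0.16 for Mrpl46 and 0.47 ± 0.22 for Mrps11 (limma adjusted p = 0.309 and 0.349).

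By origin, the 26 tested large-subunit proteins with a bacterial counterpart had a median difference of 0.10 in DCA against control, -0.12 in PB against control and 0.15 in DCA against PB livers. The 15 large-subunit proteins listed as particular to mitochondria, which include Mrps30 and Mrps18a in spite of their names, had 0.04, -0.07 and 0.12. Mrps18b and Mrps18c, which share the name series of Mrps18a, were listed with the bacterial counterparts of the small subunit. The split by origin is therefore approximate. The 16 small-subunit proteins with a bacterial counterpart had 0.01, -0.07 and 0.20, and the 9 particular to mitochondria 0.12, -0.07 and 0.19. In each of the 4 groups more genes were higher than lower in DCA against PB livers, with 20 of 26, 12 of 15, 12 of 16 and 8 of 9 higher. None of their members was called.

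The median pooled SD between mice of a group was 0.23 for the 66 genes, against 0.27 for all tested genes, 0.28 for oxidative phosphorylation subunits and 0.30 for cytosolic ribosomal proteins. Mrpl9, a large-subunit protein of bacterial descent, varied most, with a pooled SD of 0.84. It had 7.21, 6.79, 6.09 and 6.97 in DCA livers and 7.68, 6.02, 5.22, 6.97 and 5.91 in PB livers, against 8.0, 6.21, 6.37 and 5.93 in control livers. Control replicate 1 and PB replicate 1 were highest and PB replicate 3 lowest, so the groups overlapped throughout. Mrpl53, Mrps34, Mrps12 and Mrps18a followed, with pooled SDs of 0.52, 0.46, 0.44 and 0.42.

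At the edge of detection, Mrpl1, Mrpl13 and Mrpl35 entered the test with detection on 4 arrays. Mrpl35 lay between 4.36 and 5.06 on all but 1 array, which is near the lowest detected level of single-probe genes, so its values say little about differences. Mrpl51, detected on all 13 arrays by a merged detection p-value, lay as low, between 4.62 and 5.03, and the same limit holds for it. Mrpl13 is no dim gene, with a mean raw intensity of 439, and its detection p-value merged those of more than 1 probe, as did that of 14 of the 72 genes in all. Mrpl39, detected on 2 DCA arrays and 1 control array, was left out, and Mrpl19, Mrpl21, Mrpl32, Mrpl45 and Mrps14 were detected on no array.

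Other parts of the mitochondrial translation system were set beside the ribosomal genes. The 5 tested mitoribosomal proteins with other symbols had median differences of 0.00 in DCA against control, -0.15 in PB against control and 0.14 in DCA against PB livers, with Aurkaip1 at 0.29 ± 0.17 and Chchd1 at 0.04 ± 0.15 in the last. The 8 translation factors had -0.02, -0.12 and 0.15. Among them Tsfm, the nucleotide exchange factor of mitochondrial EF-Tu, averaged 7.01 ± 0.24 in DCA and 6.61 ± 0.19 in PB livers, against 6.96 ± 0.34 in control livers. Its DCA minus PB difference was 0.40 ± 0.17 (limma adjusted p = 0.309), while that of Mtrf1, a release factor homologue, was -0.24 ± 0.12.

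The 16 aminoacyl-tRNA synthetases and related enzymes of mitochondria had medians of -0.05, -0.11 and 0.04 in the same order of comparisons. Fars2, which charges the phenylalanine tRNA, averaged 9.56 ± 0.09 in DCA and 9.21 ± 0.08 in PB livers, against 9.51 ± 0.15 in control livers. PB livers overlapped neither other group, and the DCA minus PB difference was 0.35 ± 0.11 (limma adjusted p = 0.201). Qrsl1, a subunit of the amidotransferase that makes glutaminyl-tRNA, went the other way, at -0.43 ± 0.13 in DCA against PB livers (limma adjusted p = 0.19), again with no overlap.

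The 12 assembly and ribosomal RNA factors had medians of -0.08, -0.11 and -0.04. Gtpbp5, a GTPase of large-subunit assembly, was lower in all DCA than in all control livers, at -0.45 ± 0.16 (limma adjusted p = 0.995), and Eral1, a chaperone of the small-subunit RNA, was at 0.12 ± 0.15. The 12 genes of mitochondrial transcription and RNA processing had -0.08, -0.04 and 0.08. Mterf, which binds mitochondrial DNA downstream of the ribosomal RNA genes, and Polg2, an accessory subunit of the mitochondrial DNA polymerase, were at -0.82 ± 0.31 and 0.55 ± 0.21 in DCA against PB livers (limma adjusted p = 0.261 and 0.264). The 7 tested nuclear regulators had 0.11, 0.04 and 0.07. Nrf1 averaged 6.65 ± 0.40 in DCA and 7.18 ± 0.22 in PB livers, against 7.14 ± 0.31 in control livers. It was thus lower in DCA livers by 0.52 ± 0.20 against PB and 0.48 ± 0.21 against control livers (limma adjusted p = 0.261 and 0.995). Gabpb2 was at 0.17 ± 0.11 in DCA against control livers. No gene of these lists was called.

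The 61 tested subunits of oxidative phosphorylation, the system that the mitochondrial ribosome serves, had a median of 0.16 in DCA against control livers. Of them 48 were higher (78.7%, against 49.0% of all genes). In PB against control livers the median was -0.08, with 43 lower (70.5%, against 51.0% of all genes). In DCA against PB livers it was 0.24, with 51 higher (83.6%, against 49.5% of all genes). At an unadjusted p under 0.05, 16 of the 61 were higher in DCA than in PB livers (7.2% of all genes), and 0 lower (7.32% of all genes). Ndufa12 and Ndufa5, both of complex I, were higher in all DCA than in all PB livers by 0.69 ± 0.19 and 0.50 ± 0.15 (limma adjusted p = 0.172 and 0.19). The 51 tested cytosolic ribosomal proteins had medians of -0.01, -0.10 and 0.13. Rpl13a and Rpl4 were at -0.44 ± 0.13 and -0.53 ± 0.18 in PB against control livers (limma adjusted p = 0.297 and 0.384). No gene of either list was called.

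PB replicates 2 and 3, the lowest arrays for mitoribosomal genes, were low in both of these lists too. The median deviation was -0.13 and -0.31 for oxidative phosphorylation subunits, and -0.23 and -0.30 for cytosolic ribosomal proteins. Control replicate 4 was low for oxidative phosphorylation subunits too, at -0.17, while it was at -0.02 for cytosolic ribosomal proteins. Without PB replicates 2 and 3 the PB minus control median was -0.04 for oxidative phosphorylation subunits and 0.03 for cytosolic ribosomal proteins. The DCA minus PB median was then 0.16 and 0.04. The difference between these lists and the mitoribosomal genes was not tested.

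**Figure D5:**
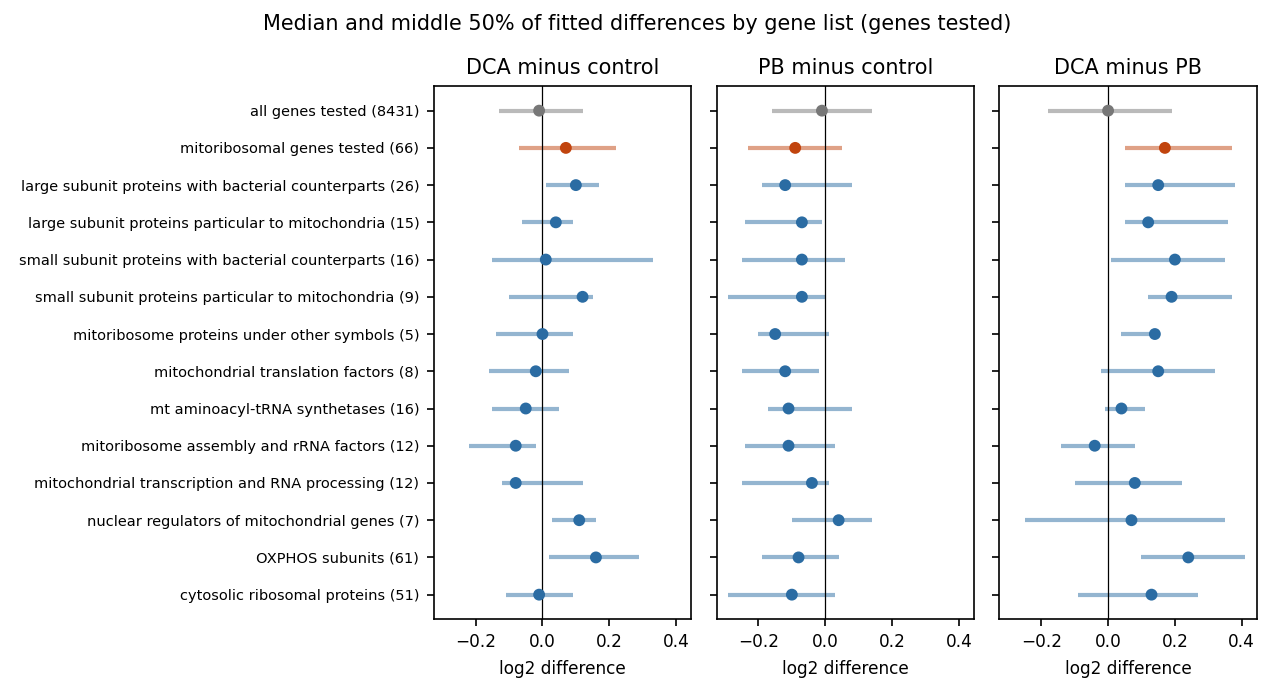
Median (points) and middle 50% (lines) of the fitted log2 differences (horizontal axes) of each gene list, in panels for DCA minus control, PB minus control and DCA minus PB, with the number of genes tested in parentheses, all tested genes in grey and the 66 mitoribosomal genes in red. In DCA minus PB the mitoribosomal median is 0.17 and that of oxidative phosphorylation subunits 0.24, while that of all genes is 0.00.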

How the data were processed

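Liver RNA of 13 male mice was hybridised to Illumina bead arrays, a mouse to an array, and the labels gave the groups. The main table, as deposited by the authors, holds for each gene and array a linear intensity and a detection p-value. It was exported from GenomeStudio, per the submitters' processing notes, whose version is not given in the sources used here. Probes had been merged to genes before deposit. A second deposited table of 18110 genes holds intensity values normalized by the authors, by steps not given in the sources used here, and served as an alternative.

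The normexp background model of limma was fitted through the detection p-values with an offset of 16, and values were put on the log2 scale and quantile-normalized. In 4470 rows, 14 of them mitoribosomal, the detection p-value combined several probes. The background was therefore fitted on the 13668 single-probe rows. Its SD was 4.32 to 12.2 intensity units per array there, and 57.3 to 150 when fitted on all rows, so dim genes differ between these settings. Quantile normalization gives all arrays one distribution, so differences are relative to the whole of genes.

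lmFit and eBayes (limma 3.58.1, R 4.3.3) gave group means over all 13 arrays and two-sided tests, with Benjamini-Hochberg adjustment over 8431 genes. The code of the fit was run on simulated data with planted differences larger than any fitted for the mitoribosomal genes. That run does not show how often differences as small as those fitted here would be found. Errors are SE of differences and SD of levels. The number of arrays limits the precision. The files name no slide or scan batch. Nothing says how animals were housed, so p-values measure the spread between these mice.

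The genes and lists were chosen with earlier results of these data known. Named are tested genes whose groups do not overlap in a comparison, the 5 per direction with the smallest unadjusted p, the 5 with the largest pooled SD, genes detected on 3 or 4 arrays, and 2 per other list with the smallest p. For the other lists that p was the smallest over any comparison, which need not be the comparison whose value is given. Genes listed at an unadjusted p under 0.05, the pair Mrpl46 and Mrps11 and Mrpl4 are named beyond these rules, after their values were seen. Alternatives changed the background fit, offset, normalization, filter, fit and arrays used. Amino acid sequences were not used here.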

Additional observations from a re-analysis of the deposited data

Results flagged for a closer look

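The levels of 30 named mitoribosomal genes and the mean level of the 66 tested were checked in each of the 3 groups, 93 sets of 4 or 5 arrays in all. Of these, 8 held an array far from the others by Dixon's criterion, which chance alone meets in about 1 in 20 unselected sets. The 30 genes were chosen from these same data and share their arrays, so the 8 cannot be judged against that rate. DCA replicate 1 accounted for 4 of them. It was low for Mrpl14 (10.19, against 10.63 to 10.68 on the other DCA arrays), Mrps18c (8.63, against 9.06 to 9.13) and Mrpl13 (7.85, against 8.43 to 8.54), and high for Mrpl35 (5.04, against 4.65 to 4.71). DCA replicate 3 was low for Mrps10 (6.35, against 6.78 to 6.84), and DCA replicate 2 was high for Mrpl37 (8.85, against 8.60 to 8.62). PB replicate 3 was low for Mrpl10 (8.77, against 8.99 to 9.06). Control replicate 1 was high for Mrps23 (7.31, against 6.73 to 6.77). DCA replicate 1 was the brightest array, with a mean raw intensity of 462, and its part in these values was not tested.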

How the results depend on the processing

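Besides the fit reported, 26 alternatives were computed for each comparison and 25 for the F test, of which 13 left out 1 array each. The count of mitoribosomal genes called stayed at 0 in all of these except DCA minus PB with array weights, where it was 5, with Mrpl14 (0.54), Mrpl30 (0.55), Mrps10 (0.65), Mrps23 (0.66) and Mrpl4 passing. The calls over all 8431 genes were 298 with those weights, against 9. Leaving out 1 array gave median differences of -0.15 to -0.05 in PB minus control, 0.03 to 0.10 in DCA minus control and 0.13 to 0.22 in DCA minus PB, with 17 to 28, 40 to 47 and 50 to 55 genes higher. Scaling each array to its median over all rows moved the median of all tested genes to 0.34 in DCA minus PB and -0.26 in PB minus control. With it the mitoribosomal median was 0.68 in DCA minus PB and -0.46 in PB minus control, where 1 gene was higher. Under the same scaling the sign turned for Mrpl1 (-0.09), Mrpl38 (-0.30), Mrps15 (-0.05) and Mrps5 (-0.06) in PB minus control, and for Mrpl15 (0.01), Mrpl38 (0.34), Mrps17 (0.40), Mrps18c (0.32) and Mrps34 (0.13) in DCA minus PB. Added after the data were seen, scaling to the median of tested genes gave 12 genes higher in PB minus control (54.8% of all genes). The DCA minus PB median was then 0.27 for the mitoribosomal genes, against -0.07 for all tested genes. The cause of these moves was not tested. Of 38 gene values named with a comparison, 13 changed sign or passed the threshold in some alternative. With the background fitted on all rows, differences of dim genes shrank, as for Mrps27 (0.13) and Mrps15 (0.11) in DCA minus control. No paired analysis was possible because the groups share no replicate numbers in the labels, where animal numbers only name mice. The replicate numbers used here run in sample order within each group and link no mice across groups. A slide block was not run, since the files name no slide.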
